A study of Homo sapiens with 36 samples.

Results

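Branched-chain amino acid degradation was examined through 10 genes chosen by symbol among the 18932 genes of the count table. They were the transaminases BCAT1 and BCAT2, the dehydrogenase genes BCKDHA, BCKDHB and DBT, the kinase gene BCKDK, the leucine genes IVD, MCCC1 and MCCC2, and the valine gene HIBCH. All 10 passed the filter on low counts at 6 h, at 24 h and over both times. RNA-seq was carried out in HepG2, an established human hepatoma cell line, for 36 samples in 12 groups of 3. The 6 treatments were vehicle (Ctrl), docosahexaenoic acid (DHA, 50 µM, an n-3 polyunsaturated fatty acid given as a complex with bovine serum albumin), propionate (PRO, 70 µM, a short-chain fatty acid given in water), protocatechuic acid (PCA, 20 µM, a phenolic acid given in acidified dimethyl sulfoxide), DHA + PRO and DHA + PCA. Each was given for 6 h or 24 h in serum-free medium, and Ctrl cells received matching amounts of albumin, ethanol and dimethyl sulfoxide. Each sample was 1 of 3 independent cultures, with the RNA of 3 wells pooled. HepG2 is a single tumour-derived line, so its values describe that line and not normal hepatocytes.

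Leucine, isoleucine and valine are first transaminated to branched-chain keto acids by a cytosolic enzyme, BCAT1, or a mitochondrial one, BCAT2. The keto acids are then decarboxylated in mitochondria by the branched-chain keto acid dehydrogenase, which the kinase BCKDK switches off by phosphorylation and the phosphatase PPM1K switches on again, and which commits the carbon to breakdown. Separate branches lead leucine to acetyl-CoA and ketone bodies, valine to propionyl-CoA, and isoleucine to both. In the body, liver is known for high dehydrogenase and low BCAT2 activity, so that much of the transamination takes place in muscle.

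The libraries of 6 h held 4659744 to 10788964 counts and those of 24 h held 5617341 to 42326734, where the deepest was replicate 2 of DHA + PRO and the others reached at most 8657882. Of the 8 hepatocyte markers, ALB had 122504 or more counts in every library and HNF4A 2144 or more. The lowest was TTR, with 362 or more. Endothelial markers had at most 8 counts each and the leukocyte markers PTPRC and CD3E at most 2. CD68, a macrophage marker on the leukocyte list, had 239 to 2080 counts and CD14 had 0 to 68, and PDGFRB of the fibroblast list had 38 to 634. The 3 libraries with the lowest GC gap, which is the median deviation of GC-rich genes minus that of GC-poor genes on the log2 scale, were replicate 1 of DHA + PRO at 6 h (−0.82), of Ctrl at 6 h (−0.52) and of PRO at 24 h (−0.48). The members’ called changes with time, and both ratios, are given with and without them.

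The level of each gene per length was expressed as RPKM (reads per kilobase of counted length, scaled for library size). MCCC2 had the highest level at 68.1 ± 6.93 RPKM (SD, n = 36), followed by BCKDK at 34.9 ± 4.97 RPKM, and each was above the next gene in all 36 libraries. IVD (22.8 ± 2.09 RPKM) and HIBCH (20.5 ± 2.41 RPKM) came next, and IVD was above HIBCH in 26 of 36 libraries. BCKDHA (13.4 ± 3.40 RPKM), MCCC1 (11.6 ± 1.25 RPKM) and BCAT1 (10.1 ± 1.55 RPKM) were neighbours whose ranges overlapped, and MCCC1 was above BCAT1 in 27 of 36 libraries. BCKDHA was above MCCC1 in 5 of 18 libraries at 6 h and in 17 of 18 at 24 h, so their order changed with time. BCKDHB followed at 6.40 ± 0.914 RPKM, below BCAT1 and above BCAT2 in all 36 libraries. BCAT2 (3.39 ± 1.11 RPKM) and DBT (1.91 ± 0.307 RPKM) were the lowest, and BCAT2 was above DBT in 32 of 36 libraries. The mean RPKM of 6 of the 10 members was above 11.4, the median over all tested genes, and MCCC2 was 35.6 times DBT. Because these values use 1 counted length per gene, RPKM by gene span gave another order.

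**Figure D1:**
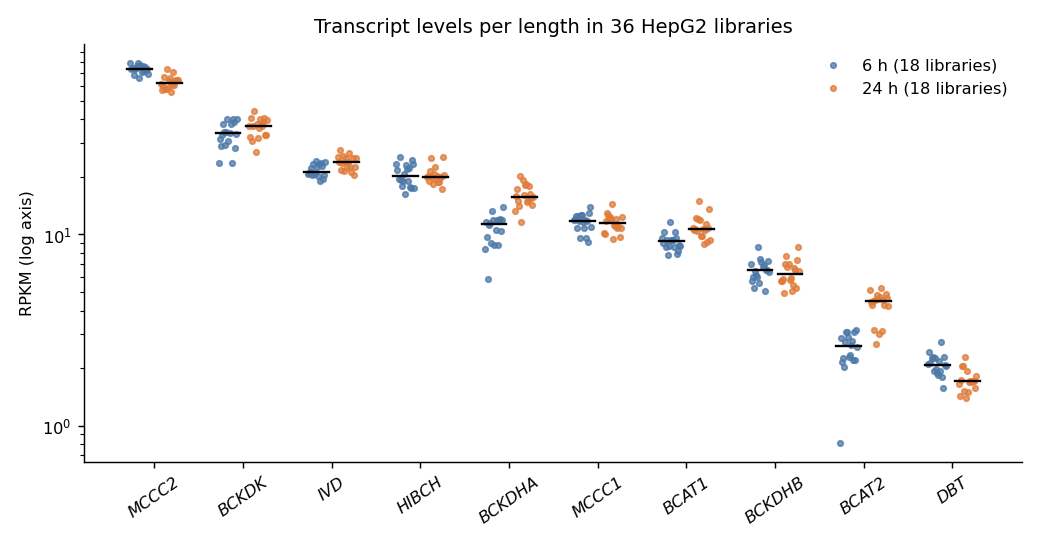
RPKM (log axis) of the 10 genes in the 18 libraries of 6 h (blue) and the 18 of 24 h (orange), with black lines at the medians. MCCC2 lies above all others (55.5 to 79.0 RPKM) and DBT has the lowest mean (1.40 to 2.74 RPKM), and BCAT2 and BCKDHA are higher at 24 h than at 6 h with overlapping ranges.

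To ask whether the bioactives altered this pathway, each treatment was compared with Ctrl at each time by the quasi-likelihood test of edgeR, and p-values were adjusted over all genes (Benjamini-Hochberg). A gene was called where its adjusted p did not exceed 0.05 and its log2 CPM (counts scaled by library size) averaged above 0. At 24 h, 0 of the 10 members were called with DHA, where the share of all genes called was 0.193%. The same count of 0 was found with DHA + PRO (all genes 0.395%), DHA + PCA (0.286%), PRO (0%) and PCA (0%). At 6 h, 0 of 10 were likewise called with DHA, DHA + PRO and DHA + PCA (0.0168% of all genes in each) and with PRO or PCA (0% each). With such backgrounds, counts of 0 among 10 genes say little about the members as a group. Of the 50 member values at 24 h, 1 had an unadjusted p under 0.05, MCCC1 with PRO, and of the 50 values at 6 h the number was 0. The DESeq2 Wald test and the edgeR likelihood ratio test also called 0 members in every treatment comparison.

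The 24 h log2 fold changes against Ctrl lay between −0.22 (BCAT2 with PRO) and 0.37 (BCKDHB with DHA + PCA), and the median of their sizes was 0.0922. At 6 h they lay between −0.27 (MCCC1 with DHA + PRO) and 0.65 (BCAT2 with PRO). In each time, all 5 comparisons share the same 3 Ctrl libraries. BCAT2 and BCKDK were above Ctrl in all 5 treatments at 6 h, and for both genes replicate 1 of Ctrl, whose GC gap is given above, was the lowest of the 18 libraries. Without the 3 libraries of lowest GC gap, BCAT2 with PRO was at 0.24 and BCAT2 was above Ctrl in 3 of 5 treatments, whereas BCKDK was at 0.17 to 0.38 and above Ctrl in all 5. The median log2 fold change of the members at 24 h with DHA, DHA + PRO and DHA + PCA was 0.0977, 0.0724 and 0.0532, against 0.00496, −0.000195 and 0.00215 over all genes. By mean CPM, PRO alone at 24 h was above Ctrl for BCAT1, BCKDHA, BCKDHB, DBT, MCCC1, MCCC2 and HIBCH. It was below Ctrl for BCAT2, BCKDK and IVD. The medians with PRO or PCA alone are not given here, so no shift particular to DHA is read from these values.

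**Figure D2:**
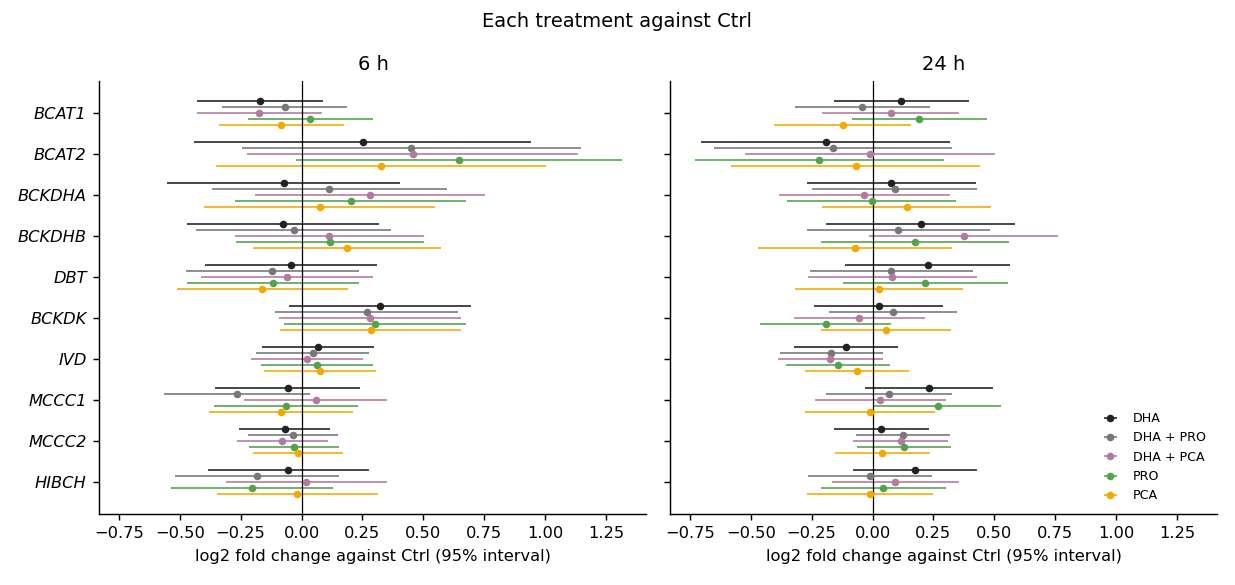
Log2 fold change against Ctrl (horizontal axis, with 95% intervals) for each gene at 6 h (left) and 24 h (right), with 1 colour per treatment. Nearly all intervals include 0, the exception being MCCC1 with PRO at 24 h (0.00568 to 0.53), and those of BCAT2 are the widest.

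For smaller changes, the 3 contrasts that differ by DHA were averaged, giving 9 samples with DHA and 9 without at each time. This pooled DHA effect called 0 of 10 members at 24 h (all genes, 1.23%) and 0 of 10 at 6 h (0.202%). An unadjusted p under 0.05 was found for 0 members at either time, against 9.88% of all genes at 24 h and 2.88% at 6 h. With the replicate number as a block, 367 genes instead of 146 were called at 24 h and 64 instead of 24 at 6 h, with 0 members among them. The 24 h values ran from −0.08 for IVD to 0.19 for BCKDHB, and 7 of 10 were positive, with a median of 0.0314 against 0.00698 over all genes. The 95% intervals were narrowest for MCCC2 (−5.17% to 10.8%) and widest for BCAT2 (−19.8% to 20.3%), so that changes inside them are not excluded. The pooled PRO effect called 0 members at 24 h (all genes, 0.00841%) and at 6 h (0%), and the pooled PCA effect called 0 at both times (0% each). Co-supplementation was tested directly by comparing DHA + PRO or DHA + PCA with DHA. PRO added to DHA called 0 members at 24 h and 6 h (0% of all genes each), as did PCA added to DHA (0% each). The 24 h values of these comparisons lay between −0.20 (MCCC1 with PCA added) and 0.18 (BCAT2 with PCA added). The change of the pooled DHA effect between the times also called 0 of 10 members (0% of all genes). It had 0 members at an unadjusted p under 0.05, against 3.05% of all genes. Its highest value was that of BCKDHB, 0.28 (SE 0.146, adjusted p = 1.00).

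Culture time was then examined by comparing the 18 samples of 24 h with the 18 of 6 h over all treatments. By the same edgeR test, 6 of the 10 members were called, against 61% of all genes, so the members' share was near the background. BCAT2, BCKDHA, BCAT1 and IVD rose (4 of 10, all genes 30.1%), and DBT and MCCC2 fell (2 of 10, all genes 31%). The ranges of the 18 libraries overlapped between the times for all members (0 of 10 without overlap, all genes 6.02%). The changes of all genes also moved with the GC content of their transcripts, which was found for 94.3% of those tested. The median log2 fold change over 5 equal classes of GC content was −0.138 in the lowest, −0.0206 in the middle and 0.183 in the highest. Values with a GC-content offset, an alternative chosen after seeing the data, are therefore given beside each member's change with time. With it 6 members were called, 3 higher and 3 lower, where IVD was lost and BCKDK was called as lower. The offset also moved the median log2 fold change over all genes, from −0.00810 to −0.0612. Its calls are against 0 and not against that median. Without the 3 libraries of lowest GC gap 6 were called, 4 higher and 2 lower. With the replicate number as a block there were 7, BCKDK being the added gene, against 67.3% of all genes under that block. The share of all genes is not given for the other 2 fits.

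Among the transaminases, BCAT1, the cytosolic transaminase that is known from growing cells and tumours, lies at hg19 chr12:24962958-25102393 on the minus strand. Its CPM at 24 h was 104, 101 and 102 with Ctrl, 117, 99.9 and 116 with DHA, and 143, 114 and 93.4 with PRO. The 3 groups overlapped, and DHA differed from Ctrl by 0.12 (SE 0.135, adjusted p = 0.973, edgeR). Over the 18 libraries of each time the CPM had a lowest, median and highest value of 74.3, 87.9 and 111 at 6 h and of 85.2, 102 and 143 at 24 h. In all 18 pairs of the same treatment and replicate number it was higher at 24 h, by 0.26 on the log2 scale (SE 0.0549, adjusted p = 0.000145). The value was 0.30 with the GC-content offset and 0.24 without the 3 libraries of lowest GC gap, and the transcripts hold 43.8% GC.

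BCAT2, the mitochondrial transaminase (hg19 chr19:49298319-49314320, minus strand), rested on few reads, with 14 to 50 counts per library at 6 h and 29 to 305 at 24 h. Its CPM was 1.29, 4.60 and 3.45 with Ctrl at 6 h and 8.22, 7.05 and 6.87 with Ctrl at 24 h. With DHA it was 3.60, 3.23 and 4.38 at 6 h and 7.19, 5.05 and 7.23 at 24 h. With PRO, 1 of the 24 h libraries, replicate 1 at 4.27, lay below all 3 of 6 h (4.92, 4.94 and 4.63). Over all treatments BCAT2 rose by 0.78 with time (SE 0.116, 1.72-fold, 95% interval 46.1% to 102%), the largest change among the members, and was higher at 24 h in 17 of 18 pairs. It was 0.53 with the GC-content offset, 0.76 without the 3 libraries of lowest GC gap, and 0.39 (PRO) to 1.25 (Ctrl) within single treatments. In none of the 10 comparisons with Ctrl was it called.

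The log2 ratio of BCAT1 to BCAT2 in RPKM sets the cytosolic against the mitochondrial transaminase within each library. It was 1.40 ± 0.245 with DHA and 1.35 ± 0.492 without DHA at 24 h (SD, n = 9 each), a difference of 0.0488 (exact two-sided permutation p = 0.810). At 6 h the values were 1.79 ± 0.297 with DHA and 2.04 ± 0.618 without DHA (exact permutation p = 0.327). With time it fell by 0.540, from 1.92 ± 0.487 to 1.38 ± 0.378 (n = 18 each, permutation p = 0.00058), and it was higher at 24 h in 2 of 18 pairs. The transcripts of BCAT1 and BCAT2 differ in GC content (43.8% and 60.9%). With the GC-content offset BCAT1 rose by 0.30 and BCAT2 by 0.53, closer together than the 0.26 and 0.78 without it. The part of GC content in the change of the ratio was not tested. Without the 3 libraries of lowest GC gap the difference of the ratio was 0.192 with DHA at 24 h (exact permutation p = 0.165), −0.0798 at 6 h (exact permutation p = 0.609), and −0.514 with time (n = 17 and 16, permutation p = 7e-05).

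**Figure D3:**
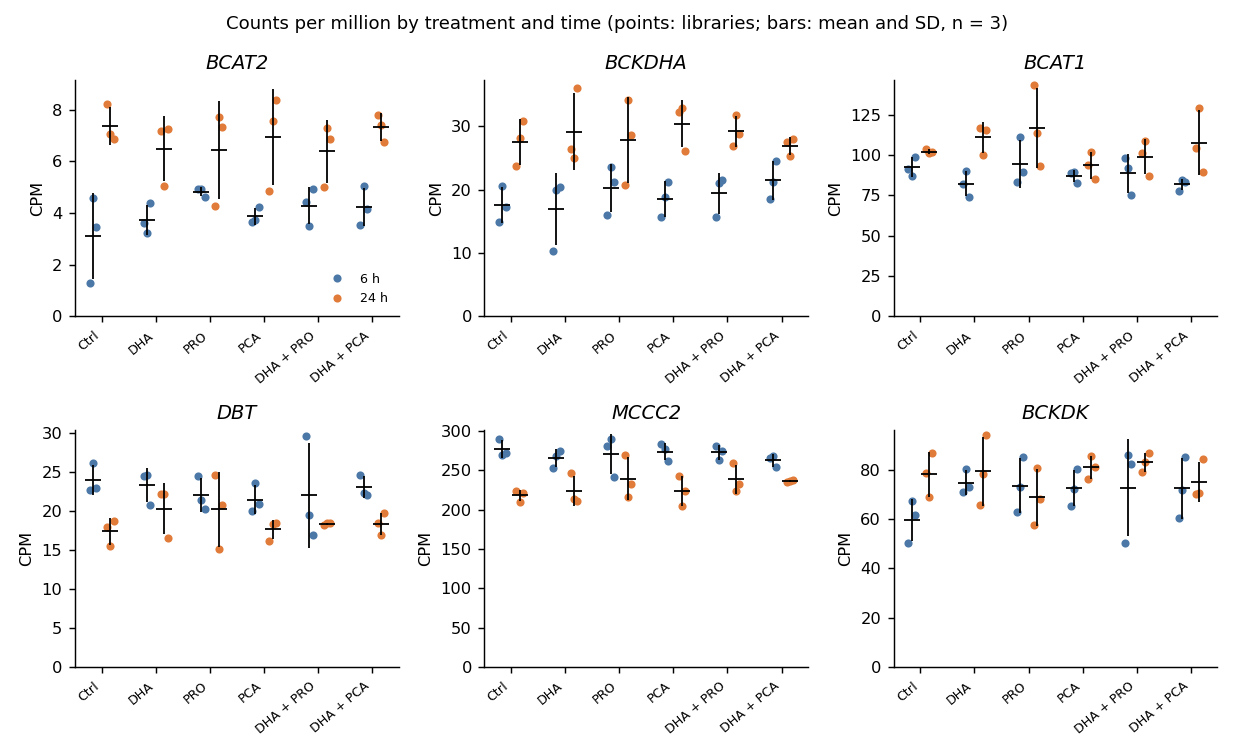
CPM of 6 genes in each treatment at 6 h (blue) and 24 h (orange), with points for libraries and black bars for the mean and SD of 3 samples. BCAT2 and BCKDHA are higher at 24 h and MCCC2 is lower in every treatment by its mean, whereas the points of BCKDK overlap.

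Of the dehydrogenase subunits, BCKDHA and BCKDHB encode the alpha and beta subunits of the decarboxylase, and BCKDHA carries the serines that BCKDK phosphorylates. DBT encodes the lipoyl-bearing core on which the complex is built. The genes lie at hg19 chr19:41903694-41930910 (plus strand), chr6:80816344-81055987 (plus strand) and chr1:100652478-100715409 (minus strand). Their transcripts did not change together with time. The 250 bases before the start of each gene are shown from RefSeq (GRCh38.p14, chr19:41397568-41397817 plus, chr6:80106421-80106670 plus and chr1:100249835-100250084 minus), 5′ to 3′ on the gene's strand. Capitals mark matches on either strand to CACGTG (E-box), GGGCGG (GC box) or CCAAT, and TATAAA, TGACGTCA and CCGGAAG were also searched but not found in them.
BCKDHA: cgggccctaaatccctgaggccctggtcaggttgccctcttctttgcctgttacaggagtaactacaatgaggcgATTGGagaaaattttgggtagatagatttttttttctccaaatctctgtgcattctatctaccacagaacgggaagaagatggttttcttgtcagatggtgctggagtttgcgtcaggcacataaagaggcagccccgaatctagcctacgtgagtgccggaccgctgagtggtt
BCKDHB: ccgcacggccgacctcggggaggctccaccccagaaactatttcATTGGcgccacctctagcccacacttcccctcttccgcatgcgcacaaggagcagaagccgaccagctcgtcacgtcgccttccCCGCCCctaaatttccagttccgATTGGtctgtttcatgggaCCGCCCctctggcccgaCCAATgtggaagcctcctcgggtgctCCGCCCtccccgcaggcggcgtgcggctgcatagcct
DBT: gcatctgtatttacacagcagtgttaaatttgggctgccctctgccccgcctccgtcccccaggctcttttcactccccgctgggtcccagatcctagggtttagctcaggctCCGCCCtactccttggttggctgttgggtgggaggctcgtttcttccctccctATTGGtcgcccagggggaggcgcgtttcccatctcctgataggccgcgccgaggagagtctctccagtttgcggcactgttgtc
The BCKDHA stretch has 48.8% GC, 8 CpG and 1 CCAAT match, the lowest GC share of the 3. That of BCKDHB has 64.8% GC, 21 CpG, and 3 matches each to the GC box and CCAAT. That of DBT has 60.4% GC, 12 CpG and 1 match to each of these motifs. The medians over the stretches of tested genes were 64.4% GC and 20 CpG, and 63.1% of these stretches hold a GC box and 33.2% a CCAAT. A match describes the letters only, and a link of these stretches to the changes with time was not tested. RefSeq stretches were matched for 9 of the 10 members, the other being BCAT2.

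BCKDHA was higher at 24 h than at 6 h in all 18 pairs. Its CPM had a lowest, median and highest value of 10.4, 20.2 and 24.6 at 6 h and of 20.6, 28 and 36 at 24 h. The lowest of each set were replicate 1 of DHA at 6 h and replicate 1 of PRO at 24 h. The rise was 0.59 on the log2 scale (SE 0.0838, 95% interval 34% to 69.7%), and it was 0.35 with the GC-content offset and 0.58 without the 3 libraries of lowest GC gap. At 24 h BCKDHA stood at 23.7, 28 and 30.8 CPM with Ctrl and at 26.5, 24.9 and 36 with DHA, which overlap. Its pooled DHA effect at 24 h was −0.00122 (95% interval −13.0% to 14.7%).

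BCKDHB showed no detectable change with time, at −0.04 (SE 0.0730, adjusted p = 0.643, 95% interval −12.3% to 7.73%). It was 0.04 with the GC-content offset, the opposite direction, and was higher at 24 h in 9 of 18 pairs. Its CPM at 24 h was 8.89, 8.85 and 9.02 with Ctrl, 7.67, 10.8 and 12.0 with DHA, and 11.3, 13.4 and 10.0 with DHA + PCA. All libraries of DHA + PCA were above all of Ctrl, and those of DHA were on both sides. The share of all genes that separate in this way is not given here. The difference of DHA + PCA from Ctrl was 0.37 (SE 0.188, unadjusted p = 0.0580, adjusted p = 0.696 by edgeR), and the pooled DHA effect was 0.19 (SE 0.107, adjusted p = 0.596), higher with DHA in 5 of 9 pairs. At 6 h the pooled DHA effect on BCKDHB was −0.10 (SE 0.108).

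DBT fell with time by 0.28 (SE 0.0677, adjusted p = 0.000571, edgeR), and was higher at 24 h in 3 of 18 pairs. Its CPM had a lowest, median and highest value of 16.9, 22.5 and 29.6 at 6 h and of 15.1, 18.4 and 24.7 at 24 h. The highest of both sets were replicate 1 of DHA + PRO at 6 h and replicate 1 of PRO at 24 h, which are also among the libraries of low GC gap. The change was −0.18 with the GC-content offset and −0.27 without those libraries. At 24 h the CPM was 18, 15.4 and 18.7 with Ctrl and 22.2, 22.2 and 16.5 with DHA, and the groups overlapped.

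The kinase gene BCKDK (hg19 chr16:31119615-31124112, plus strand) had a CPM of 78.7, 68.8 and 87.0 with Ctrl and of 65.8, 78.4 and 94.0 with DHA at 24 h. The Ctrl values lay inside those of DHA. Over the libraries its lowest, median and highest CPM was 50.1, 72.0 and 86.0 at 6 h and 57.6, 78.9 and 94.0 at 24 h. The difference with time was 0.13 (SE 0.0659, adjusted p = 0.0816), not past the threshold, and BCKDK was higher at 24 h in 11 of 18 pairs. With the GC-content offset it turned to −0.14 (adjusted p = 0.00726), so its direction with time depended on that correction. The median over all genes with the offset was −0.0612, on the same side of 0. With the replicate number as a block the difference of BCKDK was 0.13 and passed the threshold (adjusted p = 0.0104), where 67.3% of all genes were called. Its transcripts hold 62.3% GC, the highest share among the members.

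PPM1K, which is no member but acts on the same subunit, was 17.2 to 22 CPM with Ctrl and 13.6 to 17.3 with DHA at 24 h. It fell with time by 0.55 (SE 0.0723, adjusted p = 5.13e-08), and by 0.52 with the GC-content offset. Its pooled DHA effect at 24 h was −0.28 (unadjusted p = 0.0102, adjusted p = 0.261, edgeR), not past the threshold. The single comparisons lay lowest with DHA + PRO, at −0.49 (unadjusted p = 0.00751, adjusted p = 0.375).

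The log2 ratio of BCKDK to PPM1K in RPKM was 4.06 ± 0.333 with DHA and 3.70 ± 0.326 without DHA at 24 h (SD, n = 9 each). The difference of 0.356 was positive in 8 of 9 pairs and had an exact two-sided permutation p of 0.0513, not past the threshold. Pairing by replicate number took it past (exact sign-flip permutation p = 0.0430), and without the 3 libraries of lowest GC gap it was 0.320 (exact permutation p = 0.0810). Leaving out single libraries gave 0.279 to 0.431 with an exact permutation p of 0.0160 to 0.106, so the call turns on single libraries. It was past the threshold without replicate 3 of Ctrl (0.404), replicate 1 of DHA (0.411), replicate 2 of PRO (0.431), replicate 3 of PCA (0.377) or replicate 2 of DHA + PCA (0.405). At 6 h the difference was 0.253, from 3.07 ± 0.375 without DHA to 3.32 ± 0.408 with DHA (n = 9 each, exact permutation p = 0.187), and without the 3 libraries of lowest GC gap it was 0.335 and past the threshold (n = 8 each, unadjusted exact permutation p = 0.0405). With time the ratio rose by 0.686 (n = 18 each, permutation p = 1e-05, the smallest this test can give) in 17 of 18 pairs, and by 0.601 without those libraries (n = 17 and 16, permutation p = 2e-05). The transcripts of BCKDK and PPM1K differ in GC content (62.3% and 45.2%), and the part of this in the change with time was not tested on the ratio. Over the 6 tests of the 2 ratios, the Benjamini-Hochberg adjusted permutation p was 0.103 for this ratio with DHA at 24 h, 6e-05 for its change with time and 0.00174 for the change of BCAT1 to BCAT2 with time. The other 3 lay between 0.281 and 0.810. The permutations of both ratios treat the libraries as independent, whereas the methods describe 3 independent cultures, so these p-values could be too small.

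**Figure D4:**
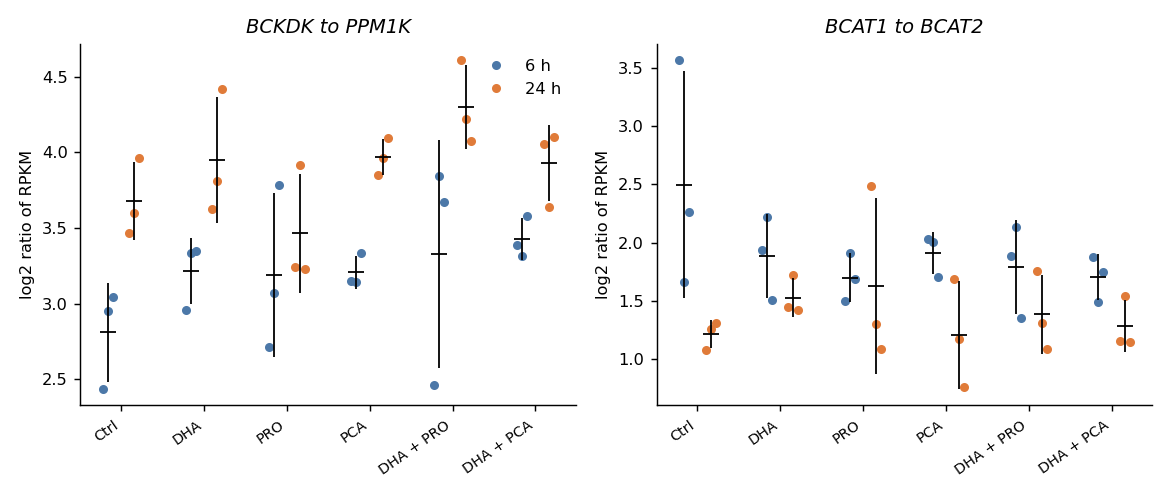
Log2 ratios of RPKM within libraries for BCKDK to PPM1K (left) and BCAT1 to BCAT2 (right), by treatment, at 6 h (blue) and 24 h (orange), with bars for the mean and SD of 3 samples. The ratio of BCKDK to PPM1K lies between 2.44 and 3.84 at 6 h and between 3.23 and 4.61 at 24 h, and that of BCAT1 to BCAT2 is highest in replicate 1 of Ctrl at 6 h (3.56).

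In the leucine branch, IVD oxidises isovaleryl-CoA, the product of the dehydrogenase from leucine (hg19 chr15:40697686-40713512, plus strand). At 24 h its CPM was 116, 110 and 126 with Ctrl, 99.3, 109 and 118 with DHA, and 93.7, 103 and 115 with DHA + PCA. All 5 treatments had a lower mean than the Ctrl libraries they share, the values overlapped, and the pooled DHA effect was −0.08 (SE 0.0598, adjusted p = 0.702, higher with DHA in 2 of 9 pairs). With time IVD rose by 0.14 (SE 0.0433, adjusted p = 0.00713), in 16 of 18 pairs. The GC-content offset took this to 0.03 (adjusted p = 0.520), so the call was lost, and it was 0.13 without the 3 libraries of lowest GC gap.

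MCCC1 and MCCC2 encode the biotin-bearing and the partner subunits of methylcrotonyl-CoA carboxylase, which acts directly after IVD. MCCC1 lies at hg19 chr3:182733006-182817375 on the minus strand and MCCC2 at chr5:70883115-70954530 on the plus strand. The 250 bases before the start of MCCC2, the member with the highest level, follow from RefSeq (GRCh38.p14, chr5:71587090-71587339, plus strand), with capitals marking the same motifs.
MCCC2: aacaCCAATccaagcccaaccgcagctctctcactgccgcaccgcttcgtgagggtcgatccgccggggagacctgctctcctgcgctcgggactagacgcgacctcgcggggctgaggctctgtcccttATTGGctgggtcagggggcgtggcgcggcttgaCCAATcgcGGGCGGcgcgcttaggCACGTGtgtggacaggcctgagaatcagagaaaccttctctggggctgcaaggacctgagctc
It has 65.2% GC and 22 CpG, 3 matches to CCAAT, 1 GC box 79 bases and 1 E-box 63 bases before the start. An E-box is in 8.24% of the stretches of tested genes, of which a gene can have several. Among the 9 members matched, MCCC1 and MCCC2 hold it, though not in all 3 stretches of MCCC1.

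MCCC1 was the member with the lowest p against Ctrl at 24 h. Its CPM was 23.3, 23.1 and 26.9 with Ctrl, 28.2, 27.6 and 33.1 with PRO, and 29.6, 29 and 27.6 with DHA. All libraries of both treatments were above all of Ctrl, and the share of all genes that separate in this way is not given here. With PRO at 24 h, 6.02% of all genes had an unadjusted p under 0.05 by edgeR. PRO differed from Ctrl by 0.27 (SE 0.127, unadjusted p = 0.0456, adjusted p = 0.826 by edgeR) and DHA by 0.23 (SE 0.127, adjusted p = 0.897), so neither passed the threshold. With DHA + PRO the CPM was 27.6, 24.6 and 25.4, which overlaps Ctrl, and the difference was 0.07 (SE 0.126). At 6 h MCCC1 was 27.1, 27.6 and 28.5 CPM with Ctrl and 21.9, 28.8 and 28.9 with PRO. With time it differed by −0.01 (SE 0.0527, adjusted p = 0.835), also with the GC-content offset (−0.01), and the 95% interval was −8.03% to 6.70%.

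MCCC2 fell with time in all 18 pairs. Its lowest, median and highest CPM was 242, 270 and 290 at 6 h and 204, 228 and 270 at 24 h. The highest library of 24 h was replicate 1 of PRO. The fall was by 0.24 on the log2 scale (SE 0.0362, 95% interval −19.3% to −10.6%). It was −0.20 with the GC-content offset and −0.24 without the 3 libraries of lowest GC gap. At 24 h MCCC2 was 224, 210 and 220 CPM with Ctrl, 246, 213 and 211 with DHA, and 270, 216 and 233 with PRO, and these groups overlapped. Its level rested on 1282 or more counts per library.

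In the valine branch, HIBCH releases free hydroxyisobutyrate from its CoA ester (hg19 chr2:191069360-191184771, minus strand). Its CPM was 38.1, 38.4 and 36.4 with Ctrl and 40.8, 47.8 and 38.2 with DHA at 24 h, a difference of 0.17 (SE 0.124, adjusted p = 0.951) with overlapping groups. At 6 h it was 44.6, 41.6 and 37.1 with Ctrl and 36.3, 39.6 and 31.1 with PRO. With time HIBCH differed by −0.01 (SE 0.0592, adjusted p = 0.839), by 0.09 with the GC-content offset (adjusted p = 0.118), and it was higher at 24 h in 7 of 18 pairs. The sample titles carry 2 series of library numbers, with 11 and 7 libraries at 6 h and 12 and 6 at 24 h. Within them the change of HIBCH was −0.13 (adjusted p = 0.0982) and 0.18 (adjusted p = 0.0474).

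The other changes with time were also recomputed within these series. BCAT2 (0.74 and 0.81), BCKDHA (0.63 and 0.51), IVD (0.12 and 0.17) and MCCC2 (−0.27 and −0.20) passed the threshold in both. BCAT1 was 0.27 in the larger series and 0.16 in the smaller (adjusted p = 0.0705), and DBT was −0.39 and −0.13 (adjusted p = 0.211), so both kept their direction and lost the call in the smaller. The difference between the series was not tested. Within each of the 6 treatments, BCAT1, BCAT2, BCKDHA and IVD were higher and DBT and MCCC2 lower at 24 h, whereas BCKDK was higher in 5 of 6.

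**Figure D5:**
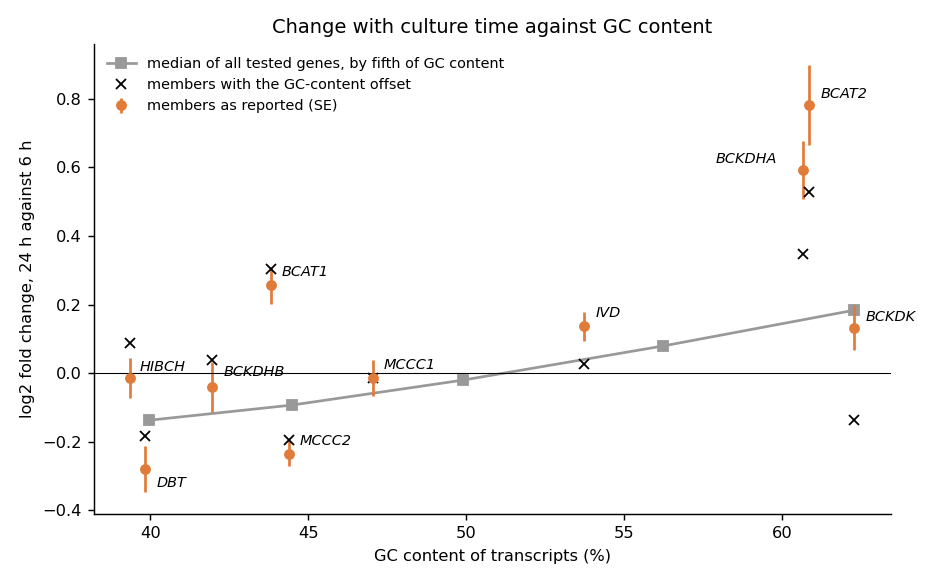
Log2 fold change of 24 h against 6 h (vertical axis) against the GC content of transcripts for the members (orange, with SE), with the GC-content offset (crosses) and the medians of all tested genes in 5 equal classes of GC content (grey). The grey line, drawn without the offset, climbs from −0.138 to 0.183. BCAT2 and BCKDHA lie above this line with and without the offset, and BCKDK crosses 0 with the offset.

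The other steps above propionyl-CoA and acetyl-CoA were read from a list of 21 genes, of which 20 were tested. With time, 10 rose and 4 fell, against 30.1% and 31% of all genes, and the median log2 fold change was 0.125 against −0.00810 over all genes. The offset also gave 10 higher and 4 lower, and 12 of them were called in both fits in the same direction. ALDH6A1, which makes propionyl-CoA in the valine branch, was among the 3 with the smallest p (1.12, SE 0.0625, and 1.11 with the offset). In the treatment comparisons, 0 of these 20 were called. With the replicate number as a block, 2 were called in the pooled DHA effect at 24 h, against 3.09% of all genes. These were ACAA2 and ABAT, named after their values were seen. Of the 6 genes from propionyl-CoA onwards, MMAB (0.61, SE 0.0466) and PCCB (0.10, SE 0.0454) rose with time and 0 fell. With the GC-content offset MMAB was at 0.43, PCCB lost the call (0.04, adjusted p = 0.439) and MCEE was called as higher (0.22). In the fit without a block 0 were called with any treatment, PRO included. With the replicate number as a block MMAB passed in the pooled DHA effect at 24 h (−0.20, adjusted p = 0.0343), where 3.09% of all genes were called. The pooled DHA effects at 24 h of the 6 genes from propionyl-CoA onwards had a median of 0.00301.

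Of the transport genes, 5 of 6 were tested, and SLC43A2 (0.95, SE 0.0835) and SLC43A1 (0.33, SE 0.0405), neutral amino acid carriers of the cell membrane, rose with time. SLC25A44, the mitochondrial carrier of branched-chain amino acids, fell by 0.11 (SE 0.0412, adjusted p = 0.0242), so 3 of 5 were called against 61% of all genes. With the GC-content offset these were 0.72, 0.10 and −0.18, and SLC7A5 (−0.12) and SLC3A2 (−0.16) were called as lower. In the pooled DHA effect at 24 h, 0 of 5 were called by edgeR, and all 5 had an unadjusted p under 0.05, against 9.88% of all genes. The lowest adjusted p was that of SLC3A2, the chain that carries SLC7A5 to the membrane (0.24, SE 0.0654, adjusted p = 0.0718, and 0.0232 with the replicate number as a block), and SLC7A5 itself was at 0.20 (SE 0.0680, adjusted p = 0.202). SLC43A1 was at 0.11, SLC25A44 at −0.16 and SLC43A2 at −0.27. SLC3A2 and SLC7A5 were named after their values were seen, and the list was read as 3 higher and 2 lower.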

How the data were processed

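RNA-seq counts of 36 HepG2 samples were used. The authors prepared TruSeq libraries, mapped reads to hg19 (GRCh37) by STAR, and ran iRNA-seq as the pipeline, and the deposited values are raw read counts per RefSeq gene without normalization. The deposited table also gives gene positions and counted lengths (an other unit, needed for RPKM; 8 genes are given a length of 1 bp). Groups and replicate numbers came from the sample labels, and doses from the study's methods. No sample was left out, and no pair of libraries was a duplicate (lowest chi-square per degree of freedom 1.93 over 630 pairs).

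The analysis used edgeR 4.0.16 under R 4.3.3 (TMM, filterByExpr, quasi-likelihood F test), in separate fits of the 18 samples of each time (11872 genes tested at 6 h and 11893 at 24 h) and in 1 fit of all 36 for changes with time (12046 genes). The script was tested on simulated data. Ratios were compared by permutation of samples between treatments with and without DHA, or by 100000 resamples. GC content came from GENCODE transcripts. Alternatives were no filter, upper quartile scaling, size factors of DESeq2, the DESeq2 1.42.0 Wald test, the likelihood ratio test, the compared groups alone, both blocks, and leaving out each library. GC-content offsets, fits within library series and leaving out the 3 libraries of lowest GC gap were added after seeing the data. The members and lists were chosen with earlier results of these data known. All members were named, and of each other list those past the threshold, for culture time the 3 with the smallest p. Some items these rules name are not reported here. Counts are reads, not molecules. The methods describe 3 independent cultures and the column names number the wells alike in every group, but neither says that equal numbers share a culture, so the replicate number was a block only in an alternative, given beside results whose call it changed. Markers were lists for hepatocytes, fibroblasts, endothelium and leukocytes.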

Additional observations from a re-analysis of the deposited data

How the results depend on the processing

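In all 626 recalculations of the treatment comparisons, 0 members were called. In the main fits of these comparisons the highest share of all genes called was 1.23% (pooled DHA effect, 24 h), and in several it was 0%. The recalculations include refits without single libraries, which share most of their data. With such low shares, these counts of 0 say little about the members as a group. The count for culture time was 6 or 7 in the alternatives fitted across both library series, 6 in the larger series alone and 5 in the smaller. The added gene was BCKDK with upper quartile scaling, the replicate block and the library series block (adjusted p = 0.0285, 0.0104 and 0.0198). With the GC-content offset the 6 were not the same genes, since IVD was lost and BCKDK was called as lower. In the smaller series BCAT1 and DBT were lost and HIBCH was called as higher. The replicate block, with replicate numbers as a factor, was not used for the main values. Samples sharing a number correlated after removal of group means by 0.256 on average at 6 h and 0.153 at 24 h, but 9 and 11 of 45 pairs were at 0.1 or below. 16 of 18 and 17 of 18 samples were closest to their own number. Across the times, libraries of the same treatment and number correlated by 0.104 on average (−0.215 to 0.240, 18 pairs). The block took the pooled DHA calls at 24 h from 146 to 367 genes and at 6 h from 24 to 64, and the calls with time from 61% to 67.3% of all genes. Among the members and PPM1K the call it changed was that of BCKDK with time.

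Directions turned for small differences. With the pooled DHA effect at 24 h, leaving out 1 library gave −0.107 to 0.0284 for BCAT2, −0.0654 to 0.0586 for BCKDHA, −0.00897 to 0.104 for DBT, −0.0263 to 0.0844 for BCAT1 and −0.00888 to 0.0512 for MCCC1. At 6 h it gave −0.0733 to 0.229 for BCAT2, −0.0400 to 0.107 for BCKDHA, −0.0287 to 0.0331 for IVD, −0.0519 to 0.0475 for HIBCH and −0.0738 to 0.0683 for DBT, and with time −0.0431 to 0.0123 for HIBCH and −0.0356 to 0.00479 for MCCC1. The other turns of the pooled DHA effect were BCKDHA without a filter at 24 h (0.00224), and at 6 h IVD with DESeq2 size factors (0.00211), upper quartile scaling (0.00133) and the Wald test (0.00124), HIBCH with the replicate block (−0.00480), and BCKDHA with the library series block (−0.0218) and the GC-content offset without and with the replicate block (−0.0194 and −0.0198). Without the 3 libraries of lowest GC gap, BCAT2 (−0.0846), DBT (−0.0882), IVD (0.0287) and HIBCH (−0.0176) turned at 6 h. For culture time, upper quartile scaling turned MCCC1 (0.0218) and HIBCH (0.0200), and the GC-content offset without and with the replicate block turned BCKDHB (0.0371 and 0.0325), BCKDK (−0.138 and −0.139) and HIBCH (0.0888 and 0.0865). HIBCH also turned without those 3 libraries (0.0282), and MCCC1 (0.0650) and HIBCH (0.176) turned in the smaller library series. The cause was not tested.

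The BCKDK to PPM1K difference with DHA at 24 h (0.356) passed the threshold under the replicate block (exact sign-flip permutation p = 0.0430) and ran from 0.279 to 0.431 with 1 library left out. That of BCAT1 to BCAT2 ran from −0.0407 to 0.192. Depth limits BCAT2 most, with 14 counts in its lowest library.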

Other observations

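The 5 tested genes linked to lipoate and biotin, the cofactors of DBT and MCCC1, were split with culture time. HLCS (0.29, SE 0.0683) and LIPT2 (0.51, SE 0.129) rose, LIAS (−0.25, SE 0.0794) fell with BTD, and 4 of 5 genes were called in all, as with the GC-content offset. Among 6 genes of the related keto acid dehydrogenases, 2 rose and 3 fell. OGDH, of the citric acid cycle, rose by 0.36 (SE 0.0723), while DLAT (−0.21, SE 0.0505) and PDHA1 (−0.14, SE 0.0359), of pyruvate dehydrogenase, fell. Among the related mitochondrial kinases and phosphatases, PDK1, which inhibits pyruvate dehydrogenase, rose by 1.64 (SE 0.0614), with PDK3 (0.34, SE 0.0536) and PDK2 (0.38, SE 0.0637), and 1 of the 6 tested fell. With the GC-content offset OGDH was at 0.22, DLAT at −0.12, PDK1 at 1.70 and PDK2 at 0.18. These counts stand against 61% of all genes called with time, and 0 genes of these 3 lists were called with any treatment by edgeR. In the pooled DHA effect at 24 h their unadjusted p was under 0.05 for 0, 0 and 1 of them, against 9.88% of all genes. DESeq2 was not run on these lists.

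Of 6 transcriptional regulators linked to the pathway, 3 rose and 2 fell with time, against 61% of all genes called. KLF15, known to promote branched-chain amino acid breakdown, fell by 0.83 (SE 0.0825), and SREBF1 (0.62, SE 0.0647) and MLXIPL (0.65, SE 0.0758) rose. Under the offset these were −1.05, 0.32 and 0.36. Of these 6 regulators SREBF1, the regulator of lipid synthesis, was called by edgeR in the pooled DHA effect. Its value was −0.68 (SE 0.0933, adjusted p = 7.15e-05) at 24 h, where 1.23% of all genes were called. At 6 h it was −0.63 (SE 0.0775, adjusted p = 0.000183), against 0.202% of all genes. It was −0.81 (adjusted p = 0.0226) with DHA + PCA at 24 h, and with the replicate number as a block it also passed with DHA (adjusted p = 0.0134) and DHA + PRO (adjusted p = 0.00569). Of the marker lists, TF (−0.20, SE 0.0476, adjusted p = 0.0317) and PDGFRB (−0.46, SE 0.107, adjusted p = 0.0236) fell in the pooled DHA effect at 24 h by edgeR (all genes called, 1.23%). With time 6 of 8 hepatocyte markers rose and 1 fell, against the same 61%, and 5 rose and 1 fell with the offset, led by TTR (1.56, SE 0.0734), SERPINA1 (0.68, SE 0.0451) and AFP (0.41, SE 0.0349), and their summed CPM was 55049 to 63416 at 6 h and 62459 to 70421 at 24 h. The summed CPM of fibroblast markers was 5.83 to 15.3 at 6 h and 12.0 to 28.7 at 24 h, of endothelial markers 0 to 0.916 and 0.288 to 1.32, and of leukocyte markers 35.4 to 73.0 and 43.9 to 57.4.

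Among themselves the members were correlated in both directions across libraries. The Pearson correlation of log2 CPM over 18 libraries had a median of 0.00248 at 6 h and −0.0338 at 24 h across the 45 pairs of members. It ran from −0.75 (DBT and IVD) to 0.73 (BCKDK and IVD) at 6 h and from −0.63 (BCKDHA and DBT) to 0.67 (BCKDHA and BCKDK) at 24 h, and the genes of a library share its depth and GC gap. BCAT2 had the widest range of group means, 1.34 on the log2 CPM scale between Ctrl at 24 h and Ctrl at 6 h, and this gap was 0.85 without replicate 1 of Ctrl at 6 h. The tested genes closest to it were NAIF1 (r = 0.62 at 6 h and 0.71 at 24 h), ZNF749 (0.52 and 0.80) and HSD17B1 (0.56 and 0.71), each over 18 libraries per time.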
